A study of Mus musculus with 3 samples.

Results

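The members were 35 listed genes of the immediate early and heat shock response, of 31053 genes counted in the series, and were chosen by name. All 35 were found. They were immediate early genes, the feedback genes induced with them, and 4 heat shock genes. Their levels were read in cells gated on raw counts of unique molecular identifiers (UMIs, 1 for each captured RNA molecule) of other genes. Of the cells kept after filters (11761, 11934 and 12240 by library), 8401 (23.4%) fell in no gate.

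Mouse ear skin was profiled by single-cell RNA sequencing in 3 groups, each as 1 library. Young WT was C57BL/6J mice aged 4 weeks (5 males and 3 females), adult WT was C57BL/6J mice aged 8 weeks (6 males and 4 females), and adult Lang-DTA was Langerin-DTA mice aged 8 weeks (4 males and 6 females). The mice were untreated and pooled within a group, so a library is 1 pool and has no replicate. In Langerin-DTA mice, human Langerin regulatory sequence drives diphtheria toxin A and removes Langerhans cells of the epidermis. The labels state that wild-type mice used with this line were littermates, from hemizygous Langerin-DTA males and wild-type females. They name adult WT by strain only, so whether it came from those litters was not given. Ears of each group were digested for 30 min at 37 °C. Lymphatic endothelial cells, blood endothelial cells, CD45+ cells and cells without CD45 or CD31 were then sorted and mixed in equal parts. With 1 library for each group no test between groups could be made. The 95% intervals given below cover counting error only, and a difference between libraries can be one between pools, preparations or runs.

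Immediate early genes are transcribed within minutes of a stimulus, without new protein synthesis, through factors already present in the cell such as SRF with its ternary complex partners, CREB and NF-kB. FOS and JUN proteins pair to form the AP-1 factor, and EGR, KLF and NR4A proteins are further DNA-binding factors of the same early wave. DUSP phosphatases, Zfp36, Socs3, Nfkbia and Tnfaip3 are induced with them and shut the signal down. Heat shock genes are driven by HSF1 when unfolded protein accumulates. In endothelium Klf2 and Klf4 are known as genes of flow sensing. Members of both groups are also known to be raised by tissue digestion at body temperature. Every library here was digested, and the part of digestion in the levels was not tested.

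The promoters of members that carry the main result are shown first, with the HSP70 pair to show how alike its copies are. RefSeq's table held a promoter for 30 of the 35 members (build GRCm38.p6). It held none for Egr1, Egr3, Ier2, Klf10 and Myc, so their promoters were not searched. The sequences are the 250 bases before the start site, on the gene's strand. Capitals mark the CRE core TGACG, bound by CREB and ATF factors, and the kappaB motif in Fos. They mark the CRE core in Junb and the kappaB motif in Ier3. In Hspa1a and Hspa1b they mark a pair of heat shock element units, GAANNTTC or TTCNNGAA. The windows are chr12:85473640-85473889 (+) for Fos, chr8:84978749-84978998 (-) for Junb, chr17:35821463-35821712 (+) for Ier3, chr17:34972157-34972406 (-) for Hspa1a and chr17:34959239-34959488 (-) for Hspa1b.
Fos: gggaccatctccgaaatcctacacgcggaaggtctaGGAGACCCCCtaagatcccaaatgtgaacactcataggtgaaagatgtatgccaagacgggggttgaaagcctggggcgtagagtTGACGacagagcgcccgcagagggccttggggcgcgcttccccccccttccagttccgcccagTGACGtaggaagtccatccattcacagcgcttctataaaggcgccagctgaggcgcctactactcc
Junb: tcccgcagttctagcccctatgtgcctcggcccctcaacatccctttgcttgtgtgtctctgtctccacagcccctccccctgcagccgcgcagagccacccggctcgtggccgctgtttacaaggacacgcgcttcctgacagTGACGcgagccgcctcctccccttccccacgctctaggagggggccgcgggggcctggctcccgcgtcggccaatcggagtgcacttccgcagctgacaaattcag
Ier3: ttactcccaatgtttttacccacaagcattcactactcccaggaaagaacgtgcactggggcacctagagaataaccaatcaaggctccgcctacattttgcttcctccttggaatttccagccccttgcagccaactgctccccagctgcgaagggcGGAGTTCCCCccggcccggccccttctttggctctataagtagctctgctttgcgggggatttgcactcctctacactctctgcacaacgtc
Hspa1a: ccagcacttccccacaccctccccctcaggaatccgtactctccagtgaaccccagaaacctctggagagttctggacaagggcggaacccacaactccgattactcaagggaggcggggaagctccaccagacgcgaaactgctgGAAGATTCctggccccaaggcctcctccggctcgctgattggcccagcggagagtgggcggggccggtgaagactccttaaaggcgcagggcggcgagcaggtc
Hspa1b: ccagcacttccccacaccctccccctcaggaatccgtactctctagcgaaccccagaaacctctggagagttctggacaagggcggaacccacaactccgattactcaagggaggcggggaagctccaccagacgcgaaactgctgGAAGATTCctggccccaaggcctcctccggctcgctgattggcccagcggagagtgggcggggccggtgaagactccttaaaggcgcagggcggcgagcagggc

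Motifs were searched on both strands of the whole window in the table, 250 bases before to 50 after the start, with 1 start, the one listed first, used for every gene. The CRE core TGACG was found in 14 of the 30 promoters (46.7%), among them those of Fos, Fosb, Junb, Atf3, Klf2, Klf4 and Dusp1, against 21% of 27025 promoters of all genes. The full CRE, TGACGTCA, which contains that core, was found in 2, Btg2 and Dusp1 (6.67% against 1.88%). Where any listed start of a gene was allowed, the CRE core was found in 16 members, the full CRE in 3, with Maff added at another of its starts, the kappaB motif in 8, the CArG box in 2 and the pair of heat shock units in 6. The kappaB motif was found in 7 (23.3% against 4.35%), namely Fos, Fosb, Fosl2, Ier3, Nfkbia, Nr4a1 and Tnfaip3. The AP-1 motif TGANTCA was found in 1, Tnfaip3 (3.33% against 7.93%), and the CArG box of SRF in 1, Zfp36 (3.33% against 1.57%). A heat shock element of 3 alternating units was found in 1, Hsph1 (3.33% against 0.529%), and a pair of units in 5 (16.7% against 15.1%). These matches describe the letters of the windows only. The promoters of Hspa1a and Hspa1b were identical at 296 of 300 positions. The genes themselves are near-identical copies on chromosome 17, so counts may be split between them or lost, and the values of each are uncertain.

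Of members named often below, GENCODE M21 (GRCm38) places Maff at chr15:79346621-79359076, Dusp2 at chr2:127336159-127338376 and Klf6 at chr13:5861482-5870394.

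The gates followed known markers. Lymphatic cells had at least 2 Prox1 UMIs, and were split by the sum of Gdf15 and Gpnmb into state-low (at most 1 UMI) and state-high (at least 4 UMIs). Gdf15 encodes a stress-induced cytokine and Gpnmb a lysosome-related glycoprotein, and neither is a member. Blood endothelial cells had at least 3 Cdh5 and Ptprb UMIs and no Prox1 or Mmrn1. Keratinocytes had at least 0.3% of UMIs in Krt5 and Krt14, fibroblasts at least 2 Dpt UMIs, chondrocytes at least 3 Col2a1 UMIs, epidermal gamma delta T cells at least 1 Trdv4 UMI and Langerhans cells at least 2 Cd207 UMIs. In every gate and library with at least 50 cells, none of the 6 or 7 markers of its own cell type was at 0. The gate genes are among these markers. In pooled cells markers of other types were often above 0 too, so this is no check of identity. For example, none of the 7 keratinocyte markers was at 0 in young WT state-low cells. In the Col2a1 gate the fibroblast markers summed to more than the chondrocyte markers, which does not measure the share of either cell type. In adult WT its summed fibroblast markers were 11691 CPM (counts per 1000000 UMIs of the pooled cells) and its chondrocyte markers 4658 CPM. Of Dpt cells 8.07% to 24.9% also met another gate, and of Col2a1 cells 10.8% to 18.6%, so these gates are called by their genes. The Cd207 gate held 565 and 408 cells in young and adult WT and 7 in Lang-DTA, so no level is given for the last. State-low cells numbered 2966 in young WT, 1232 in adult WT and 970 in Lang-DTA, and state-high cells 484, 119 and 989. The libraries held 137441575, 128595813 and 124590777 UMIs in the same order, and any 2 of them shared 39 to 50 cell barcodes.

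In lymphatic cells of adult Lang-DTA ears most members were lower than in adult WT. The load of a cell, meaning the share of its UMIs in the 35 genes, had a median of 1.48% in state-low cells of young WT, 2.65% in adult WT and 1.08% in Lang-DTA. In state-high cells the medians were 4.03%, 5.05% and 1.69%. Lang-DTA was the lowest of the 3 libraries in both states. The upper quartile of Lang-DTA state-high cells (2.74%) lay under the lower quartile of adult WT (3.54%). Cells with a load of at least 3% made up 30.9%, 45.5% and 18.5% of state-low cells and 74.0%, 80.7% and 19.7% of state-high cells in young WT, adult WT and Lang-DTA. Cells under 0.5% made up 31.4%, 18.3% and 30.4% of state-low cells.

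**Figure D1:**
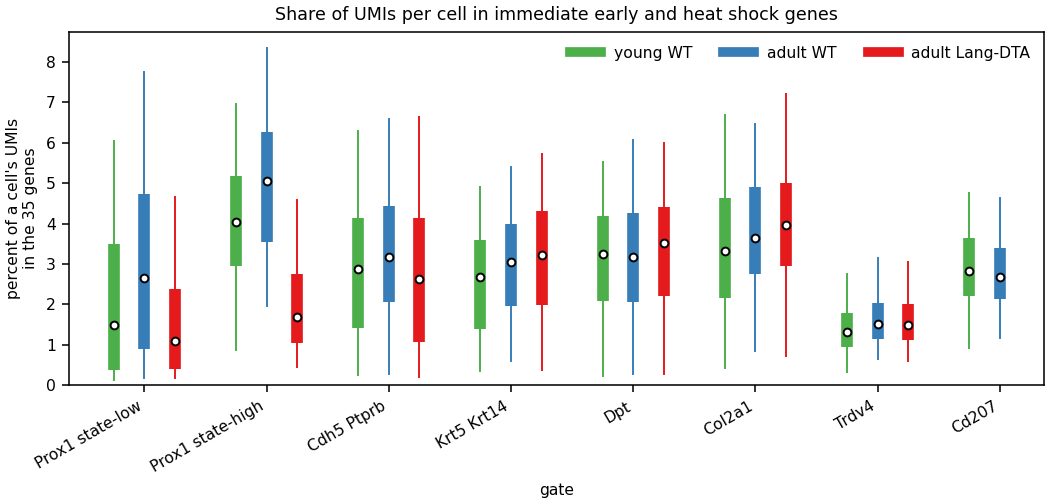
Percent of each cell's UMIs in the 35 genes (y axis) by gate (x axis) and library (colour). Circles are medians, thick bars quartiles and thin lines the 5th to 95th percentile over cells. The Lang-DTA bars are low in both Prox1 gates, with medians of 1.08% and 1.69%, and the quartile bars of Lang-DTA and adult WT are separate in state-high cells.

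In state-low cells the quartile ranges of all 3 libraries overlapped (0.368% to 3.5%, 0.883% to 4.73% and 0.406% to 2.37%).

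In the gates outside the lymphatic cells the medians lay closer together. Median loads in young WT, adult WT and Lang-DTA were 2.87%, 3.16% and 2.62% in blood endothelial cells, and 2.68%, 3.05% and 3.23% in keratinocytes. They were 3.24%, 3.16% and 3.52% in Dpt cells, 3.32%, 3.65% and 3.97% in Col2a1 cells, and 1.32%, 1.52% and 1.5% in Trdv4 cells. In Cd207 cells they were 2.81% in young WT and 2.68% in adult WT. Within each of these gates too the quartile ranges of the libraries overlapped.

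Against adult WT, 23 of the 35 members were lower by at least 1.5-fold in state-low cells of Lang-DTA and 1 was higher. Of all 9234 genes at 10 CPM or more in the higher library, 9.88% were lower and 16.2% higher by that fold. The members' median log2 ratio was -0.71, beside 0.08 for all genes. In state-high cells 24 of 35 were lower and 4 higher, beside 21.9% lower and 31.4% higher of 9336 genes, and the median was -1.37, beside 0.14. The counting interval lay under 0 for 29 members in state-low and 27 in state-high cells. Male-called and female-called cells come from different mice of the pool. Of the members, 18 were lower by at least 1.5-fold in both sexes in state-low cells, and 24 in state-high cells. Cells of both sexes shared 1 library per group, so the sexes are not replicates. For the counts by interval and by sex no share of all genes was computed. Over 11 other settings (cell filters, gates, scaling, depth, sex and Lyve1 level) the number lower stayed between 20 and 28 in state-low and between 24 and 27 in state-high cells. Under these settings too the share of all genes was not computed.

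**Figure D2:**
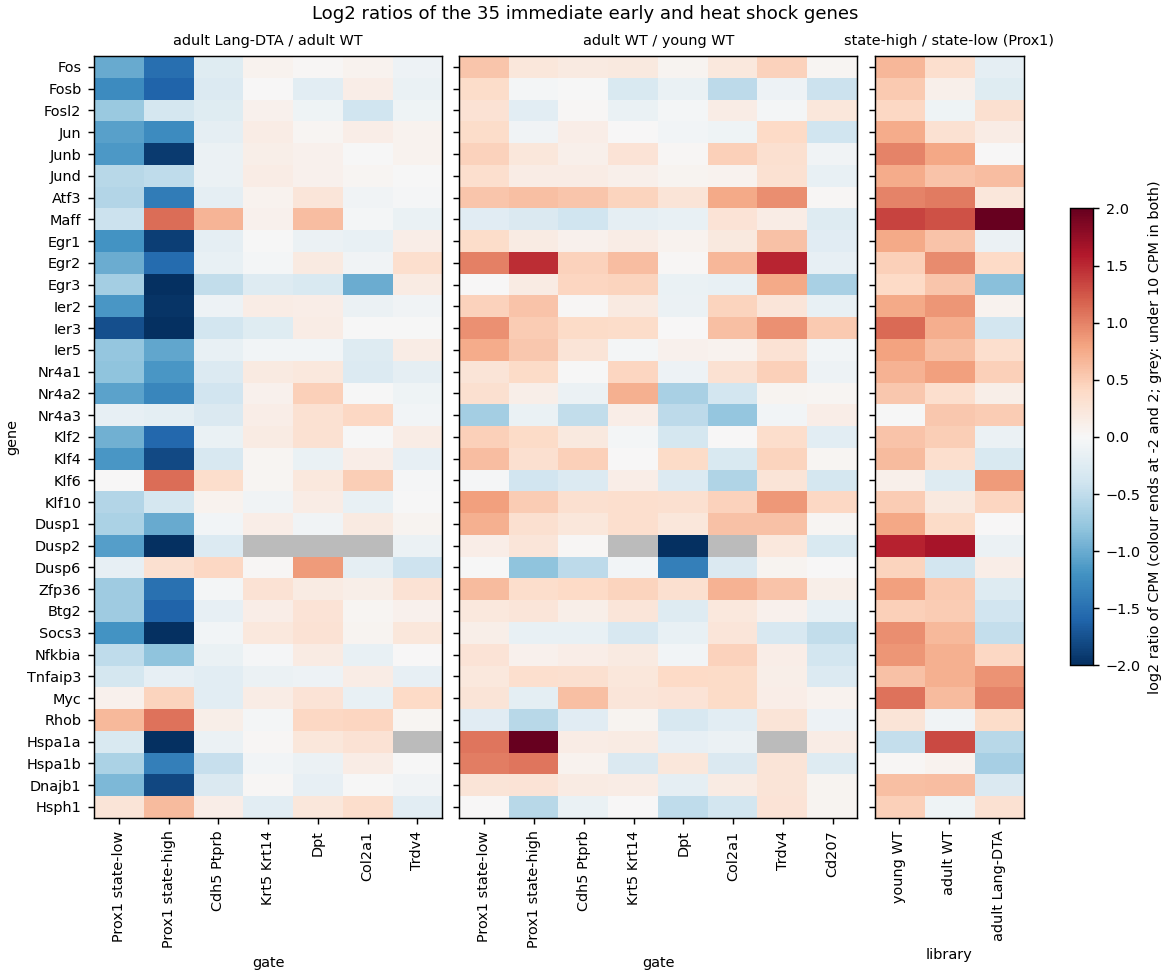
Log2 ratio of CPM for each member (rows) in each gate or library (columns), for genotype, age and lymphatic state; blue is lower and red higher in the first-named group, and grey marks genes under 10 CPM in both. In the genotype panel 23 and 24 of 35 rows are lower by at least 1.5-fold in the Prox1 columns and at most 1 in any other column.

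The FOS family, partners of JUN in AP-1, was lower as a whole in state-low cells. Fos stood at 5447 CPM in young WT, 8035 in adult WT and 3992 in Lang-DTA, a log2 ratio of Lang-DTA to adult WT of -1.01 (95% interval -1.03 to -0.99). It was highest in adult WT and lowest in Lang-DTA. Fosb stood at 1227, 1589 and 667 CPM (log2 ratio -1.25), and Fosl2 at 91.0, 111 and 66.3 CPM (-0.75, -0.91 to -0.58). In state-high cells Fos stood at 8670, 10114 and 3538 CPM (-1.52, -1.55 to -1.48) and Fosb at 1758, 1714 and 566 CPM (-1.60). Fosl2 differed less there, at 121, 105 and 82.3 CPM (-0.35, -0.66 to -0.03).

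The JUN family was also lowest in Lang-DTA in both states. Junb, a JUN protein of feedback and differentiation, stood at 1741, 2388 and 1080 CPM in state-low cells (-1.14, -1.18 to -1.11) and at 3477, 4077 and 1086 CPM in state-high cells (-1.91, -1.96 to -1.85). Jun stood at 1732, 2234 and 1048 CPM (-1.09) and at 2903, 2771 and 1162 CPM (-1.25). Jund, which most cells express steadily, was the least different of the 3. It stood at 1075, 1352 and 923 CPM (-0.55) and at 1803, 2005 and 1411 CPM (-0.51), both short of 1.5-fold.

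The partners Atf3 and Maff parted ways in state-high cells only. In state-low cells both were lower, and both fell short of 1.5-fold. Atf3, a stress-induced factor of the ATF family, stood at 844, 1243 and 832 CPM in state-low cells (-0.58) and at 1685, 2556 and 973 CPM in state-high cells (-1.39). Maff, a small Maf protein that pairs with NRF2 and other leucine zipper factors, stood at 170, 146 and 108 CPM in state-low cells (-0.43, -0.57 to -0.29). In state-high cells it stood at 434, 353 and 771 CPM, higher in Lang-DTA by 1.12 (0.96 to 1.29) on the log2 scale. Maff was thus the member with the largest excess in Lang-DTA state-high cells, together with Klf6. In blood endothelial cells Maff was also higher in Lang-DTA, at 44.8, 34.0 and 54.4 CPM (0.68, 0.56 to 0.80).

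All 6 EGR and IER genes were lower by at least 1.5-fold in both states. Egr1, a zinc finger factor and standard readout of growth factor signalling, stood at 1427, 1831 and 798 CPM in state-low cells (-1.20) and at 2419, 2719 and 735 CPM in state-high cells (-1.89, -1.95 to -1.82). Egr2 stood at 16.8, 33.6 and 16.9 CPM (-0.99) and at 23.3, 64.7 and 22.2 CPM (-1.54, -1.97 to -1.10), and Egr3 at 42.2, 42.2 and 26.4 CPM (-0.68) and at 55.7, 62.4 and 14.7 CPM (-2.08, -2.53 to -1.61). In state-high cells the Lang-DTA levels of Egr1 and Egr3 were under both WT levels. That of Egr2 was close to young WT (22.2 and 23.3 CPM). Ier3, an early response gene linked to cell survival, stood at 604, 1141 and 338 CPM in state-low cells (-1.76, -1.82 to -1.69) and at 1328, 1887 and 262 CPM in state-high cells (-2.85, -2.94 to -2.76). It was the most reduced member in state-low cells, and in male-called and female-called cells of that state its ratio was -2.13 and -1.61. Ier2 stood at 579, 794 and 355 CPM (-1.16) in state-low and at 982, 1456 and 372 CPM (-1.97) in state-high cells. Ier5 stood at 205, 341 and 200 CPM (-0.77) and at 358, 520 and 252 CPM (-1.04).

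Among the NR4A orphan nuclear receptors, Nr4a1 and Nr4a2 were lower and Nr4a3 was not. Nr4a1 stood at 177, 211 and 120 CPM in state-low cells (-0.81) and at 286, 373 and 166 CPM in state-high cells (-1.16). Nr4a2 stood at 176, 219 and 104 CPM (-1.07) and at 256, 277 and 112 CPM (-1.30). Nr4a3 stood at 49.7, 31.0 and 27.5 CPM (-0.17, -0.46 to 0.12) and at 49.3, 45.0 and 39.3 CPM (-0.20, -0.67 to 0.31), and both intervals held 0.

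The KLF factors split by gene. Klf2 stood at 1366, 1894 and 972 CPM in state-low cells (-0.96) and at 2038, 2672 and 896 CPM in state-high cells (-1.58). Klf4 stood at 1278, 1954 and 870 CPM (-1.17) and at 1987, 2473 and 705 CPM (-1.81). Klf6, a factor of wound and injury responses, did not follow this pair, at 823, 811 and 812 CPM in state-low cells (0.00, -0.05 to 0.06). In state-high cells it stood at 882, 677 and 1474 CPM and was higher in Lang-DTA by 1.12 (1.0 to 1.24). Klf10 stood at 154, 273 and 181 CPM (-0.59) and at 219, 311 and 243 CPM (-0.35), where the second fell short of 1.5-fold.

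**Figure D3:**
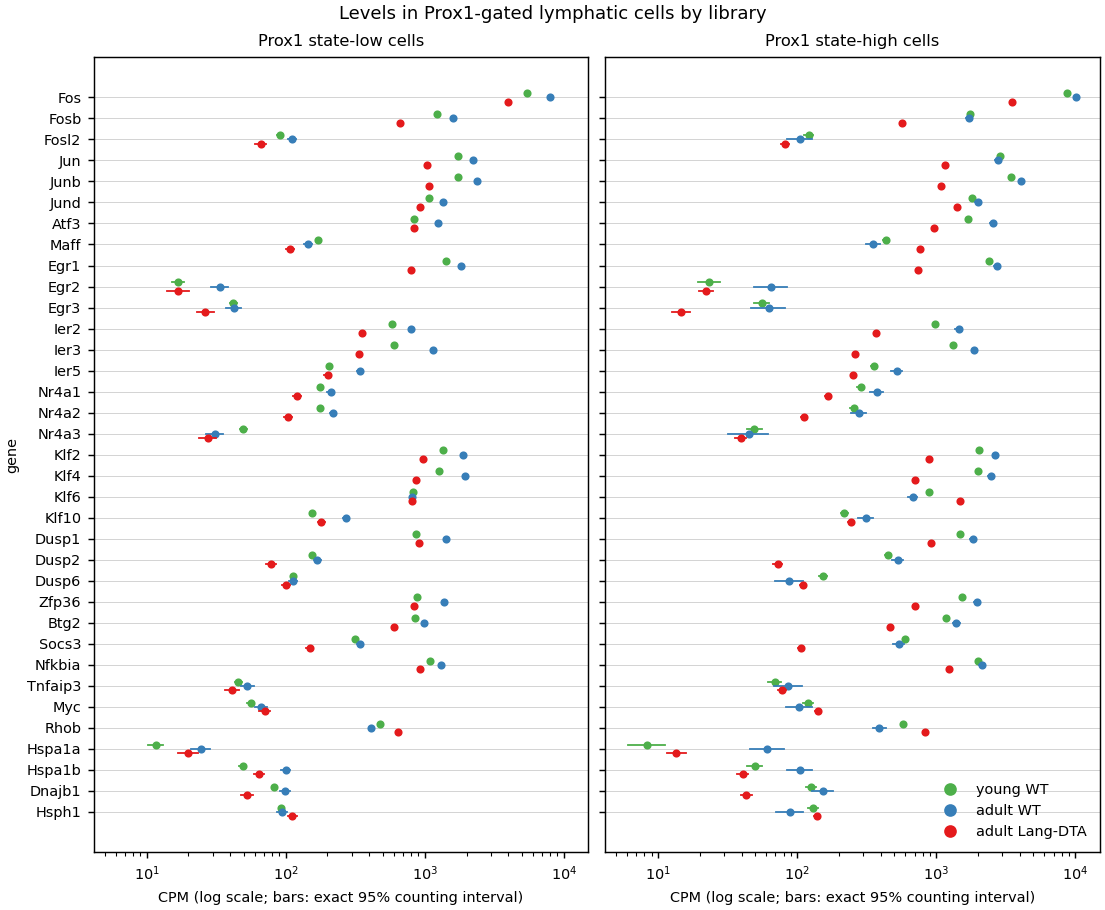
CPM on a log axis (x) for each member (rows) in state-low (left) and state-high (right) lymphatic cells; points are libraries and bars exact 95% counting intervals. Red points (Lang-DTA) lie left of blue points (adult WT) for 31 rows on the left and 29 on the right; Maff, Klf6, Rhob, Hsph1, Myc and Dusp6 lie to the right of them in state-high cells.

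The feedback genes were mostly lower, with exceptions. Dusp1, a phosphatase of p38 and JNK, stood at 870, 1420 and 916 CPM in state-low cells (-0.63) and at 1481, 1848 and 923 CPM in state-high cells (-1.0). Dusp2, a nuclear phosphatase that shuts down growth and stress signals, stood at 154, 169 and 78.4 CPM (-1.11) and at 447, 528 and 72.4 CPM (-2.87, -3.03 to -2.70), the most reduced member in state-high cells. Dusp6, a cytoplasmic feedback phosphatase, was close in all 3 libraries of state-low cells, at 113, 113 and 101 CPM (-0.17), and stood at 154, 87.8 and 110 CPM in state-high cells (0.33, -0.01 to 0.68). Zfp36, which destabilizes cytokine mRNAs, stood at 880, 1367 and 836 CPM (-0.71) and at 1546, 1968 and 700 CPM (-1.49). Btg2, an antiproliferative gene, stood at 850, 985 and 603 CPM (-0.71) and at 1181, 1396 and 462 CPM (-1.59). Socs3, the inhibitor of gp130 and other cytokine receptors, stood at 315, 343 and 149 CPM (-1.20) and at 597, 539 and 107 CPM (-2.33, -2.49 to -2.18). Both states had less of these 3 genes in Lang-DTA than in either WT library. Nfkbia, the inhibitor of NF-kB, stood at 1086, 1306 and 919 CPM (-0.51) and at 2012, 2146 and 1228 CPM (-0.81). Tnfaip3, the ubiquitin editor A20, stood at 45.8, 52.9 and 41.4 CPM (-0.35) and at 69.0, 86.6 and 77.5 CPM (-0.16, -0.50 to 0.20), within 1.5-fold in both.

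Rhob ran the other way, and Myc passed 1.5-fold in neither state. Rhob, an early-induced small GTPase of endosomes and junctions, stood at 481, 412 and 645 CPM in state-low cells (0.65, 0.58 to 0.72) and at 578, 392 and 831 CPM in state-high cells (1.09, 0.93 to 1.25). It was the only member of the 35 higher by at least 1.5-fold in state-low cells, and under median-of-ratios scaling none was. Myc, a growth regulator, stood at 56.2, 66.9 and 70.8 CPM (0.08, -0.10 to 0.27) and at 119, 104 and 142 CPM (0.45, 0.14 to 0.77), within 1.5-fold.

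The heat shock members were split. Dnajb1, the HSP40 co-chaperone of HSP70, stood at 83.2, 99.2 and 53.0 CPM in state-low cells (-0.90, -1.09 to -0.72) and at 126, 152 and 43.2 CPM in state-high cells (-1.82, -2.10 to -1.53). Hspa1b stood at 49.1, 100 and 64.4 CPM (-0.64) and at 49.8, 105 and 40.8 CPM (-1.37). Hspa1a stood at 11.7, 24.6 and 19.9 CPM (-0.30, -0.64 to 0.03) and at 8.41, 61.2 and 13.6 CPM (-2.17, -2.63 to -1.70). The HSP70 pair was highest in adult WT in both states, with the uncertainty on near-identical copies given above. Hsph1, the HSP110 exchange factor, was not reduced, at 93.3, 94.2 and 112 CPM in state-low cells (0.25, 0.10 to 0.40). In state-high cells it stood at 130, 88.9 and 139 CPM (0.64, 0.31 to 0.99), higher in Lang-DTA by at least 1.5-fold.

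To compare shares of cells at equal depth, each cell was thinned to 2000 UMIs drawn at random. In state-low cells so thinned, at least 1 Fos UMI was found in 68.5% of young WT, 81.4% of adult WT and 65.8% of Lang-DTA cells. Ier3 was found in 35%, 52.9% and 23.5%, Egr1 in 52.8%, 65.2% and 41.3%, and Socs3 in 27.5%, 33.9% and 16.5%. Lang-DTA was the lowest for each of these genes. Over the 35 members the share was lower in Lang-DTA than in adult WT for 31, with separate 95% binomial intervals for 24, and higher with separate intervals for 1. In state-high cells separate intervals were seen for 25 lower and 2 higher shares. These intervals take the cells of 1 pool as independent and do not test a difference between groups. Genes other than the members were not counted this way. Dusp2, at 0.404% of thinned adult WT keratinocytes, shows how low a share of cells can lie where a gene is nearly silent, beside 20.5% in adult WT and 9.36% in Lang-DTA state-low cells. Median depths were 13437, 4752.5 and 6790 UMIs in those 3 sets of cells. Cells with fewer than 2000 UMIs were left out, 104 in young WT, 92 in adult WT and 41 in Lang-DTA among state-low cells. Without thinning, Fos shares were 74.6%, 82.2% and 73.2%.

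**Figure D4:**
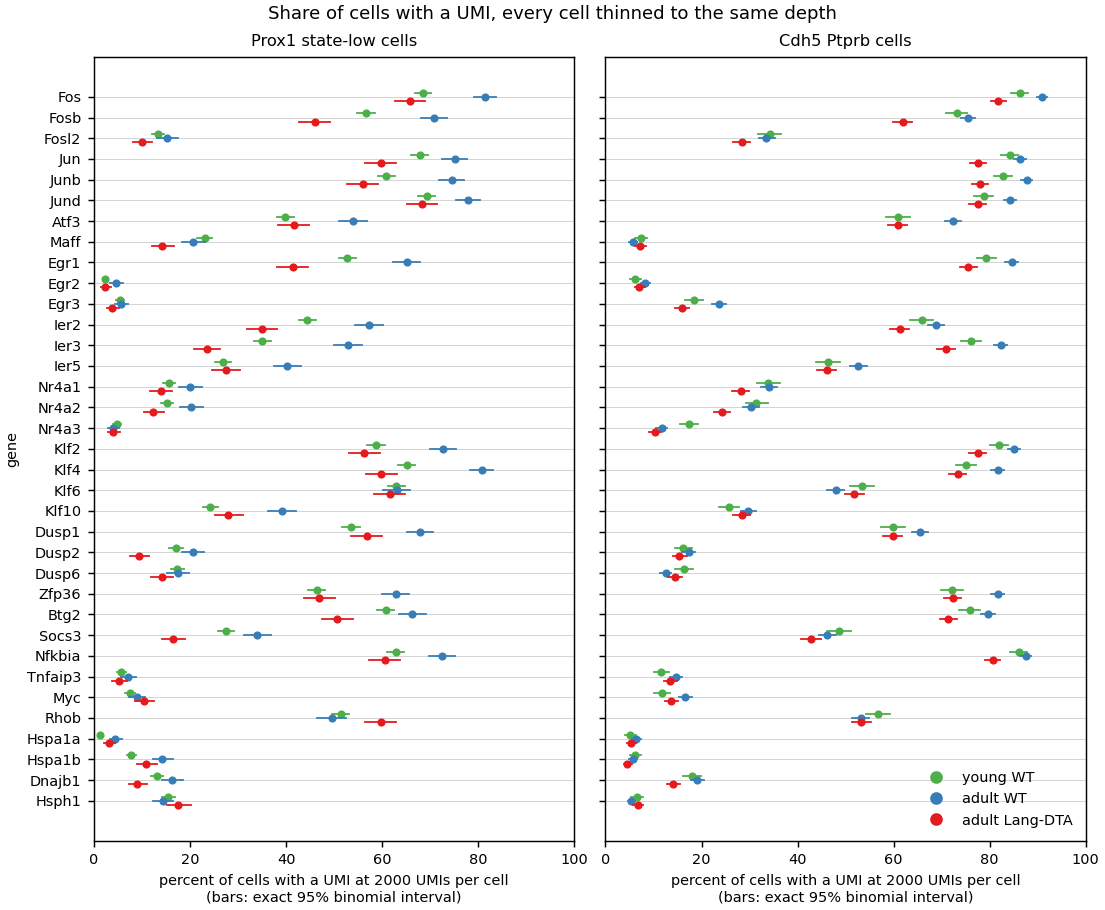
Percent of cells with at least 1 UMI (x axis) of each member (rows) after every cell was thinned to 2000 UMIs, in state-low lymphatic cells (left) and blood endothelial cells (right); bars are exact 95% binomial intervals. Lang-DTA (red) is under adult WT (blue) for 31 members on the left and 30 on the right, by a median of 11.1 and 6.01 percentage points.

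Other measures differed between the same lymphatic cells. Median depth in state-low cells was 7203 UMIs in young WT, 4752.5 in adult WT and 6790 in Lang-DTA, and in state-high cells 9792, 6704 and 11384. In cells of 3000 to 8000 UMIs only, the median load was 0.884%, 2.84% and 0.759% in state-low and 4.24%, 5.29% and 1.34% in state-high cells, and 26 and 27 members were lower in Lang-DTA. The median mitochondrial share was 1.33%, 1.77% and 1.76% in state-low and 1.13%, 1.80% and 0.596% in state-high cells, and its part in the result was not tested. The 7 lymphatic markers (Prox1, Lyve1, Flt4, Pdpn, Mmrn1, Reln and Ccl21a) summed to 11550, 17179 and 8999 CPM in state-low and to 11130, 13302 and 5102 CPM in state-high cells, none of them at 0. Among cells with at least 2 Lyve1 UMIs 25 and 26 members were lower, and among cells with none 20 and 26. Within the depth and Lyve1 restrictions no share of all genes was computed. Adult WT state-high cells numbered only 39 with at least 2 Lyve1 UMIs and 77 with none. Erythroid markers (5 haemoglobin and haem genes, none at 0 in state-low cells) summed to 3.57, 257 and 128 CPM in state-low cells, and to 2.74, 1.16 and 131 CPM in state-high cells, where 4 of the 5 were at 0 in adult WT. The 5 pericyte and smooth muscle markers summed to 49.7, 43.6 and 201 CPM in state-low cells, with none at 0, and to 2.54, 1.16 and 14.5 CPM in state-high cells, with 2 at 0 in young WT and 4 in adult WT. In the 119 state-high cells of adult WT, the 6 fibroblast markers summed to 866 CPM (1 of them at 0), the 7 keratinocyte markers to 420 CPM and the 4 melanocyte markers to 99.3 CPM. In Lang-DTA these sums were 103, 57.4 and 21.7 CPM and in young WT 11.9, 18.6 and 0.977 CPM. The part of this other RNA in the result was not tested.

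In blood endothelial cells the members were only slightly lower in Lang-DTA. No member was lower by 1.5-fold and 1, Maff, was higher, beside 0.765% lower and 1.79% higher of 8761 genes. The ratio was under 0 for 29 of 35 members, with a median of -0.16, beside 0.06 for all genes. Egr3 stood at 121, 162 and 116 CPM in young WT, adult WT and Lang-DTA (-0.49, -0.56 to -0.42), Ier3 at 1682, 2198 and 1698 CPM (-0.37) and Fos at 5731, 6506 and 5504 CPM (-0.24, -0.25 to -0.23). Adult WT was the highest of the 3 libraries for each of them. Blood endothelial cells with a load under 0.5% made up 12.4%, 8.11% and 16.5%, and in thinned cells the share with a UMI was lower in Lang-DTA for 30 of 35 members, with separate intervals for 22. No such count over thinned cells was made for all genes. The difference between the lymphatic and the blood endothelial ratios was not tested.

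In the other gates few members differed by genotype. In keratinocytes 0 of 34 measured members passed 1.5-fold in either direction, beside 0.139% higher and 0.254% lower of 8649 genes. The ratios ran from -0.26 to 0.29. Atf3, whose level was highest in keratinocytes, stood there at 2959, 4024 and 4213 CPM in young WT, adult WT and Lang-DTA. In Trdv4 cells also 0 of 34 passed, beside 3.63% higher and 1.62% lower. In Dpt cells 2 of 34 were higher and 0 lower, beside 5.78% and 3.36%, namely Dusp6 (36.2, 14 and 25.3 CPM, 0.85, 0.42 to 1.30) and Maff (75.3, 67.6 and 103 CPM, 0.61, 0.41 to 0.81). In Col2a1 cells 0 of 34 were higher and 1 lower, beside 6.94% and 7.03%, namely Egr3 (41, 37 and 18.5 CPM, -1.0, -1.68 to -0.33). In Dpt and Col2a1 cells these counts lay near or under the background.

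With age, some members were higher in adult than in young WT state-low lymphatic cells, and how many varied with depth. The age and genotype comparisons share the adult WT library, so they are not independent findings. A level particular to that pool would enter both, and this was not tested. In state-low cells 9 of 35 were higher by at least 1.5-fold and 1 lower, beside 5.04% and 6.7% of 9151 genes. The median was 0.33, beside -0.11 for all genes. The 9 were Hspa1a (1.08), Hspa1b (1.03), Egr2 (1.0), Ier3 (0.92), Klf10 (0.82), Ier5 (0.74), Dusp1 (0.71), Zfp36 (0.64) and Klf4 (0.61), and the lower one was Nr4a3 (-0.68). Young cells were deeper than adult ones. In cells of 3000 to 8000 UMIs 28 members were higher and 0 lower, the median was 0.83 and Nr4a3 stood at 0.30, so the size of the age difference depended on this choice. No share of all genes was computed for those cells. In state-high cells 4 of 35 were higher (Hspa1a 2.86, Egr2 1.48, Hspa1b 1.08 and Atf3 0.60) and 1 lower (Dusp6, -0.81), beside 10% and 14.4% of 8961 genes, with 119 adult cells behind these values. The higher count there lay near the background.

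Outside lymphatic cells, Trdv4 cells had the most members higher with age. There 7 of 34 were higher and 0 lower, beside 6.22% and 5.72% of 8762 genes, with a median of 0.27, beside -0.07. The 7 were Egr2 (4.66 in young and 13.4 CPM in adult WT), Atf3 (119 and 225 CPM), Ier3 (53.5 and 100 CPM), Klf10 (28.8 and 52.5 CPM), Egr3 (41.6 and 70.0 CPM), Dusp1 (314 and 473 CPM) and Egr1 (169 and 255 CPM). Lang-DTA stood close to adult WT for these 7 genes in Trdv4 cells, for example Atf3 at 222 CPM and Dusp1 at 489 CPM. In blood endothelial cells 1 of 35 was higher (Myc, 0.60) and 0 lower, beside 3.78% and 4.51%. In keratinocytes 2 of 34 were higher (Nr4a2 0.71 and Egr2 0.62) and 0 lower, beside 4.09% and 2.92%. In Col2a1 cells 5 of 34 were higher and 2 lower, beside 8.97% and 11.8%, with 102 adult cells. Those higher were Atf3, Zfp36, Egr2, Ier3 and Dusp1 and those lower Nr4a3 and Klf6. In Dpt cells 0 of 35 were higher and 3 lower (Dusp2 -2.24, Dusp6 -1.37 and Nr4a2 -0.65), beside 6.03% and 11.3%. Of Dpt cells 24.9% in young and 8.07% in adult WT also met another gate, and with single-gate cells only 1 member was lower. In Cd207 cells 0 of 35 were higher and 1 lower (Egr3, -0.65), beside 5.55% and 6.24%.

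Within the WT libraries, state-high lymphatic cells carried more of the members than state-low cells. In young WT 20 of 35 were higher by at least 1.5-fold and 0 lower, beside 1.79% and 9.01% of 9047 genes. In adult WT 15 were higher and 0 lower, beside 7.09% and 16.3% of 9063 genes. The medians were 0.64 and 0.56, beside -0.08 and -0.07 for all genes. Dusp2 had the largest excess in both, by 1.54 (1.46 to 1.61) and 1.64 (1.48 to 1.80), followed by Maff, by 1.35 (1.28 to 1.43) and, in adult WT after Hspa1a (1.31), by 1.28 (1.09 to 1.47). Junb was higher by 1.0 and 0.77, Ier3 by 1.14 and 0.73 and Atf3 by 1.0 and 1.04. State-high cells were also deeper, and in cells of 3000 to 8000 UMIs 31 members were higher in young WT and 21 in adult WT, with 0 lower in both. Among Lyve1-negative cells 14 were higher and 2 lower in young WT, and 7 higher and 1 lower in adult WT. Neither restriction had a share of all genes computed beside it.

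In Lang-DTA the 2 states were closer in these genes. There 5 of 35 were higher and 2 lower, beside 17.5% and 22.7% of 9340 genes, and the median was 0.11, beside -0.08. The higher ones were Maff by 2.84 (2.73 to 2.94), Myc by 1.0 (0.86 to 1.14), Tnfaip3 by 0.90, Klf6 by 0.86 and Jund by 0.61. The lower ones were Egr3, at -0.84, and Hspa1b, at -0.66. Maff was thus higher in state-high cells of all 3 libraries. Dusp2 was higher in both WT libraries and stood at -0.11 (-0.27 to 0.04) in Lang-DTA. The sign of the median depended on Lyve1. Among cells with at least 2 Lyve1 UMIs 11 members were higher and 1 lower with a median of 0.35, and among cells with none 4 were higher and 11 lower with a median of -0.28. Whether the state difference itself differed between libraries was not tested.

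The order of gates differed between members, as adult WT shows. State-high lymphatic cells held the highest CPM of 12 of the 35 members, among them Fos, Junb, Ier2, Klf2, Klf4, Dusp1 and Dusp2, and Trdv4 cells the lowest CPM of 15. Nr4a3 was mainly a gene of the immune gates, at 1994 CPM in Cd207 and 1181 CPM in Trdv4 cells against at most 87.5 CPM elsewhere. Btg2 was highest in Cd207 cells, at 3269 CPM, and Fosl2 and Tnfaip3 in Trdv4 cells, at 642 and 539 CPM. Klf2 stood at 959 to 2672 CPM in the endothelial, Dpt and Col2a1 gates and at 68.9 to 110 CPM in keratinocytes, Trdv4 and Cd207 cells. Dusp2 stood at 131 to 528 CPM in endothelial and 296 CPM in Cd207 cells, and at most at 18.5 CPM in the others. Counting intervals of some neighbours in such orders overlapped, for example those of Tnfaip3 in the Col2a1 and Dpt gates, both at 161 CPM.

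Other genes of the response were read from 3 further lists. Of 26 measured further immediate early genes, 15 were lower and 1 higher in Lang-DTA state-low cells, with a median of -0.63, beside 9.88% lower and 16.2% higher of all genes. Of 27 in state-high cells 14 were lower and 5 higher, with a median of -0.59, beside 21.9% and 31.4%. Dusp5, a nuclear feedback phosphatase, had 165 CPM in adult WT and 37.7 CPM in Lang-DTA state-low cells (-2.13), and 395 and 28.7 CPM in state-high cells (-3.79). Csrnp1, with log2 ratios of -1.14 and -2.30, and Sertad1, with -1.07 and -1.88, were lower in both states. Hbegf, an EGF family ligand, stood at 121 and 8.01 CPM in state-high cells (-3.92, -4.34 to -3.51). Ctgf, a matricellular gene also driven by YAP, ran the other way, at 43.2 and 164 CPM in state-low (1.92) and at 5.78 and 211 CPM in state-high cells (5.19, 3.97 to 6.82), the lower value resting on 5 UMIs.

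Of 19 measured further chaperones 5 were higher and 1 lower in Lang-DTA state-low cells, beside 16.2% and 9.88% of all genes, with a median of 0.00. In state-high cells 8 were higher and 4 lower, near the 31.4% and 21.9% of all genes, with a median of 0.18. Hspb1, a small heat shock protein, was lower (349 to 173 CPM, -1.02, and 398 to 132 CPM, -1.60). Stip1 (0.64 and 1.27), Hspa4l (0.84 and 1.26) and Hspe1 (0.65 and 1.21) were higher. Of 22 measured upstream regulators, kinases and factors such as Srf and Creb1 that act before these genes, 0 passed 1.5-fold in state-low cells. In state-high cells 2 were higher, Elk1 by 1.13 and Map2k1 by 0.76, and 3 lower, Mkl2 at -1.02, Rps6ka3 at -0.86 and Elk3 at -0.75, both counts under the share of all genes.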

How the data were processed

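Single-cell RNA was counted in 3 libraries of mouse ear skin made with 10x Genomics 3' chemistry. The authors deposited counts of UMIs per gene and called barcode, with no normalization. Per the file headers they were made with Cell Ranger 8.0.1, and per the submitters' processing notes with Cell Ranger 8.01 on GRCm38. The annotation release, strand setting and intron setting were not given in the sources used here. Of the members, Jun, Junb, Jund, Dusp1, Zfp36 and Hspa1a overlap another counted gene on the opposite strand. An imiquimod condition named in the protocol is not analysed here.

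Cells needed 500 genes and 1000 UMIs, with no more than 10% of UMIs mitochondrial. Doublets were simulated inside every library (2 for each cell) and scored over 50 neighbours in 30 principal components. At an assumed 0.4% for every 1000 barcodes, 638, 687 and 701 cells were called doublets and left out. Cells were gated as described and could fall in more than 1 gate. Male and female calls used Y-linked genes and Xist.

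UMIs were summed per gate and library and scaled to CPM, and a log2 ratio has an exact conditional 95% interval. A gene was measured at 10 CPM in the higher library and counted as higher or lower at 1.5-fold. For counts of 0 in a ratio, 3 counts were used. Levels needed 50 cells and comparisons 100 in both libraries. CPM has an exact Poisson and shares of cells an exact binomial 95% interval, covering counting error only. Counts were simulated for 11404 genes for age and 9195 for genotype, with some of the genes changed 2-fold. The changed genes were recovered at a median log2 of 1.01 and 1.00, and 1.03% and 0.2% of unchanged genes were called. Such counts hold no variation between pools, preparations or runs, so they check the calculation only. All 35 members may be named, and from each further list at most 6 genes for each comparison and gate, by size of ratio. The members, gates and lists were chosen with earlier results of these data known. Promoters came from RefSeq on GRCm38.p6. Other settings tried concerned doublets, cells in several gates, scaling, cell weights, the CPM floor, gate thresholds, sex and thinning. Restrictions by depth and Lyve1 were chosen after seeing the data. Software was pandas 2.3.3, numpy 2.4.6, scikit-learn 1.9.0, scipy 1.17.1 and matplotlib 3.10.9 under Python 3.11.15.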

Additional observations from a re-analysis of the deposited data

Results flagged for a closer look

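The age ratios of Egr3 and Nr4a2 had opposite signs in different cells. The log2 ratio of adult to young WT for Egr3 was 0.75 in Trdv4 cells (41.6 to 70.0 CPM) and -0.65 in Cd207 cells (177 to 113 CPM). For Nr4a2 it was 0.71 in keratinocytes (41 to 67.1 CPM) and -0.65 in Dpt cells (366 to 234 CPM). Of Dpt cells 24.9% in young and 8.07% in adult WT also met another gate, and the part of this was not tested. In Cd207 and Dpt cells the members lower with age were a smaller share than among all genes, and in keratinocytes the higher ones lay near it. With age, 0 members passed 1.5-fold in both sexes in Cd207 cells and in keratinocytes. Nr4a2 in keratinocytes stood at 0.29 in male-called and 1.11 in female-called cells. Each group was 1 library and the difference between the cell types was not tested.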

How the results depend on the processing

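Of the medians and counts of members recomputed under other settings, 388 stayed close to their reported value and 107 moved. Close means within 1.5 times the reported count, or inside the order-statistic 95% interval of the reported median over members. Shares of all genes past 1.5-fold were computed only with the settings of the main result. The lower level in Lang-DTA lymphatic cells held under every setting run, with medians from -0.95 to -0.62 in state-low and from -1.52 to -0.99 in state-high cells.

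With cells of 3000 to 8000 UMIs, age gave 28 higher and 0 lower in state-low cells (median 0.83), and 8 higher and 3 lower in state-high cells. For genotype 0 state-low members were higher. For state, young WT had a median of 1.12 with 31 higher, adult WT a median of 0.72, and Lang-DTA 12 higher and 0 lower.

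Among Lyve1-negative cells, age gave 8 higher and 3 lower in state-high cells, and genotype 2 higher in state-low cells. State gave medians of 0.50, 0.30 and -0.28 in young WT, adult WT and Lang-DTA, with 2 lower, 7 higher and 1 lower, and 11 lower. Among Lyve1-positive cells, age gave 0 lower in both states and a median of 0.058 in state-high cells, and genotype 0 higher in state-low cells. State gave medians of 0.89 in young WT and 0.35 in Lang-DTA, 1 lower in adult WT, and 11 higher and 1 lower in Lang-DTA.

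With cells weighted equally, age gave 0 lower in state-low, 2 lower in state-high, 0 higher in blood endothelial, 1 in Krt5 Krt14 and 3 in Col2a1 cells, and genotype 0 higher in blood endothelial and 1 in Col2a1 cells. State gave medians of 0.86 in young and 0.80 in adult WT, with 23 higher in adult WT and 9 in Lang-DTA. Under median-of-ratios scaling, age gave 11 higher and 0 lower in state-low cells and 8 higher in state-high cells (median 0.33), medians of 0.22, 0.25 and 0.066 in blood endothelial, Krt5 Krt14 and Dpt cells, 2 higher in blood endothelial, 1 lower in Col2a1, and 1 higher and 0 lower in Cd207 cells. Genotype gave 0 higher in state-low and 1 in Dpt cells, and state 6 higher and 1 lower in Lang-DTA. That scaling sets the median of all genes, here between -0.12 and 0.14, to near 0.

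With stricter gates, age gave 0 lower in state-low, 7 higher and 2 lower in state-high, and 3 higher and 4 lower in Col2a1 cells. Genotype gave 1 higher in Dpt, 4 higher and 0 lower in Col2a1, and 1 higher in Trdv4 cells. State gave medians of 0.82 and 0.66 in young and adult WT and 10 higher in Lang-DTA. In male-called cells age gave 0 lower in state-low, 4 lower in state-high, 1 lower in blood endothelial, 0 higher in Krt5 Krt14, 1 higher in Dpt and 2 lower in Cd207 cells. Genotype gave 0 higher and 1 lower in blood endothelial, 4 higher in Col2a1, and 1 higher and 1 lower in Trdv4 cells. In female-called cells age gave 2 lower in state-high, 0 higher and 1 lower in blood endothelial, 5 lower in Dpt, 2 higher and 4 lower in Col2a1, and 1 higher and 5 lower in Cd207 cells. Genotype gave 2 higher and 2 lower in Col2a1 cells (median 0.15), and state 1 lower in young WT.

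With doublet calls kept, age gave 0 lower in state-low, 1 higher in Krt5 Krt14, 1 lower in Col2a1 and 1 higher in Cd207 cells. Genotype gave 1 higher and 1 lower in Dpt cells and 2 higher in Trdv4 cells (median 0.068), and state 1 lower in Lang-DTA. With cells of a single gate, age gave 0 lower in state-low, 1 lower in Dpt and 3 higher in Col2a1 cells, and genotype 1 higher in Dpt, Col2a1 and Trdv4 cells each. With no CPM floor, genotype gave 1 lower in Krt5 Krt14 and Dpt cells each and 2 lower in Col2a1 cells.

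Of single-gene ratios past 1.5-fold as reported, 4 changed sign, and sign changes of smaller ratios are not listed. The age ratio of Nr4a3 in state-low cells was 0.30 in cells of 3000 to 8000 UMIs. The state ratio of Tnfaip3 in young WT was -0.15 in Lyve1-negative cells. The state ratio of Egr3 in Lang-DTA was 0.12 in cells of 3000 to 8000 UMIs and 0.29 in Lyve1-positive cells. The cause of these changes was not tested. No paired analysis was possible because each group was 1 library. The 119 state-high cells of adult WT, with 865789 UMIs in all, limit the precision of comparisons with them.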
